A study of Rattus norvegicus with 2 samples.

Results

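The translation initiation and elongation factor genes were examined in RNA sequenced from the urine of Sprague Dawley rats. They were chosen by symbol alone, as every number-only gene ID of the deposited table whose rat symbol begins with Eif1 to Eif6, Eef1 or Eef2. This gave 62 genes, all protein-coding, of 16484 number-only gene IDs. They were divided by symbol into 15 genes of the eIF2 group, 13 of the eIF3 group, 14 of the eIF4 group, 11 of the elongation group and 9 other initiation factors. The enzymes and binding proteins that act on these factors carry the same symbols and were kept as members.

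Each group of rats was represented by 1 library. The UUO library came from rats whose right ureter was tied (unilateral ureteral obstruction, a model of renal fibrosis), and the WT library from sham-operated rats, which had the same surgery without ligation. Labels give an age of 56 postnatal days for both, and sampling was 2 weeks after surgery. Sex, genotype beyond the strain, and the number of rats that gave urine to a library are not given in the sources used here. Urine was taken from the ureter by catheter in both groups, so that for UUO rats it is urine newly formed behind the obstruction. The table calls its conditions UrRf and Urc. They were read as UUO and WT, and every direction below rests on that reading.

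Translation of an mRNA starts when eIF2 brings the initiator tRNA to the small ribosomal subunit, eIF3 holds the subunit open for the mRNA, and the eIF4 proteins bind the cap and unwind the leader. Elongation factor eEF1A then delivers each aminoacyl-tRNA, and eEF2 moves the ribosome along. In kidney cells, as in others, stress kinases slow initiation through eIF2, and the eIF4E-binding proteins slow it at the cap. RNA in urine comes from shed cells and vesicles, so its level follows both the cells that are lost and the RNA they hold, and in bulk RNA fewer cells of a type and less RNA per cell cannot be told apart. Here the urine was spun before it was frozen and again once thawed, a step that can remove cells.

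Values are FPKM, in which fragments are divided by transcript length and by the size of the library, so that levels may be compared between genes. Differences are those of log2(FPKM + 1), UUO minus WT, and understate the change of low genes. With 1 library per group there was no replicate error and no test, so each value describes this pair of libraries. The steps in the FPKM values made 1 fragment on a transcript of 2000 bp worth 0.252 FPKM in the WT and 0.222 in the UUO library. For such a transcript an FPKM of 10 stands for about 39.6 fragments in the WT and 45.0 in the UUO library, and the 95% interval of a log2 ratio then spans 0.62 to either side. At an FPKM of 100 it spans 0.19. These intervals cover counting error only, and PCR copies were not told apart. The deposited scaling also matters: the 7218 number-only genes that reached an FPKM of 1 in both libraries had a median log2 difference of -0.81, and rescaling moved that median by 0.56 to 0.81. Member values are therefore set against this gene median.

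Cell markers differed between the libraries as well. All 4 listed red-cell genes were more than 2-fold higher in UUO urine, with FPKM summing to 2454 in WT against 77661 in UUO urine, and none was at 0. All 6 leukocyte genes were higher, with a sum of 7.55 and 138, and 5 of them, Ptprc, Cd68, Itgam, S100a8 and S100a9, were listed at 0 in WT urine. Urothelial genes were present in both libraries, with a sum of 806 in WT and 1112 in UUO urine and only Krt5 at 0 in WT. Of these 6 genes, Krt20 (log2 difference -1.02) and Upk1b (-0.66) were lower in UUO urine and the other 4 higher. The sum of 5 proximal tubule genes was 106 in WT against 38.3 in UUO urine, and that of 5 loop and collecting duct genes 125 and 85.7. Against the gene median, 4 of the 5 proximal genes lay below it, with a list median of -1.96. Of the 5 loop and collecting duct genes 4 lay above it, with a list median of -0.50. Aqp1 (-0.08) and Scnn1a (-3.17) were the exceptions. Under each rescaling the proximal median stayed below 0 and the other was above 0. None of these tubule genes was at 0. The part of the cell mixture in the member values was not tested.

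Position was checked for each member by its neighbours. In 58 members at least 13 of the 20 nearest listed genes were also near the gene in RefSeq. Eif3e, Eif3h, Eif3i and Eif2s3y shared 0 of 20, so their listed locus may hold a copy and not the gene itself. The listed loci of Eif3i, Eif3e and Eif2s3y span only 1002, 1503 and 391 bp. RefSeq names further entries that are like members by symbol, among them Eef1a1l1, Eef1a1l2, Eif3el1, Eif4a1l and Eif4g2l1. They were not analysed here and their sequence identity was not computed, so the FPKM of Eef1a1, Eif3e, Eif4a1 and Eif4g2 is uncertain. Eif4g1 and Eif5 were not analysed here either. Of the 62 members, 55 shared their listed locus with another entry of the table, and 11 shared it with another number-only gene.

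Most translation factors were present in both urines. At an FPKM of 1 or more, WT urine held 55 members and UUO urine 58, against 47.3% and 56.3% of all number-only genes. Eef1a2, Eif2s3y, Eif3e and Eif5b were listed at 0 in both libraries. Eif5b, which joins the ribosomal subunits, is needed in every cell, so such a 0 can be a failed estimate. Eif2b1, Eef1akmt1 and Eef1akmt2 were listed at 0 in WT urine alone, and 0 members in UUO urine alone. A total of 17 members reached an FPKM of 100 in WT urine and 7 did so in UUO urine. These counts are as deposited, where the gene median was -0.81, and they depend on that scaling. The share of all number-only genes at that level was not counted.

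The highest member by far was Eef2, the translocation factor. It stood at 2324 FPKM in WT against 999 in UUO urine, which placed it 6th and 12th among all number-only genes. Eef1g followed with 530 and 216. The next in WT urine were Eif6 at 259, Eif3c at 248 and Eif3b at 217. In UUO urine they were Eef1a1 at 126, Eef1b2 at 114 and Eif4h at 105. The order below Eef1g thus differed between the libraries.

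**Figure D1:**
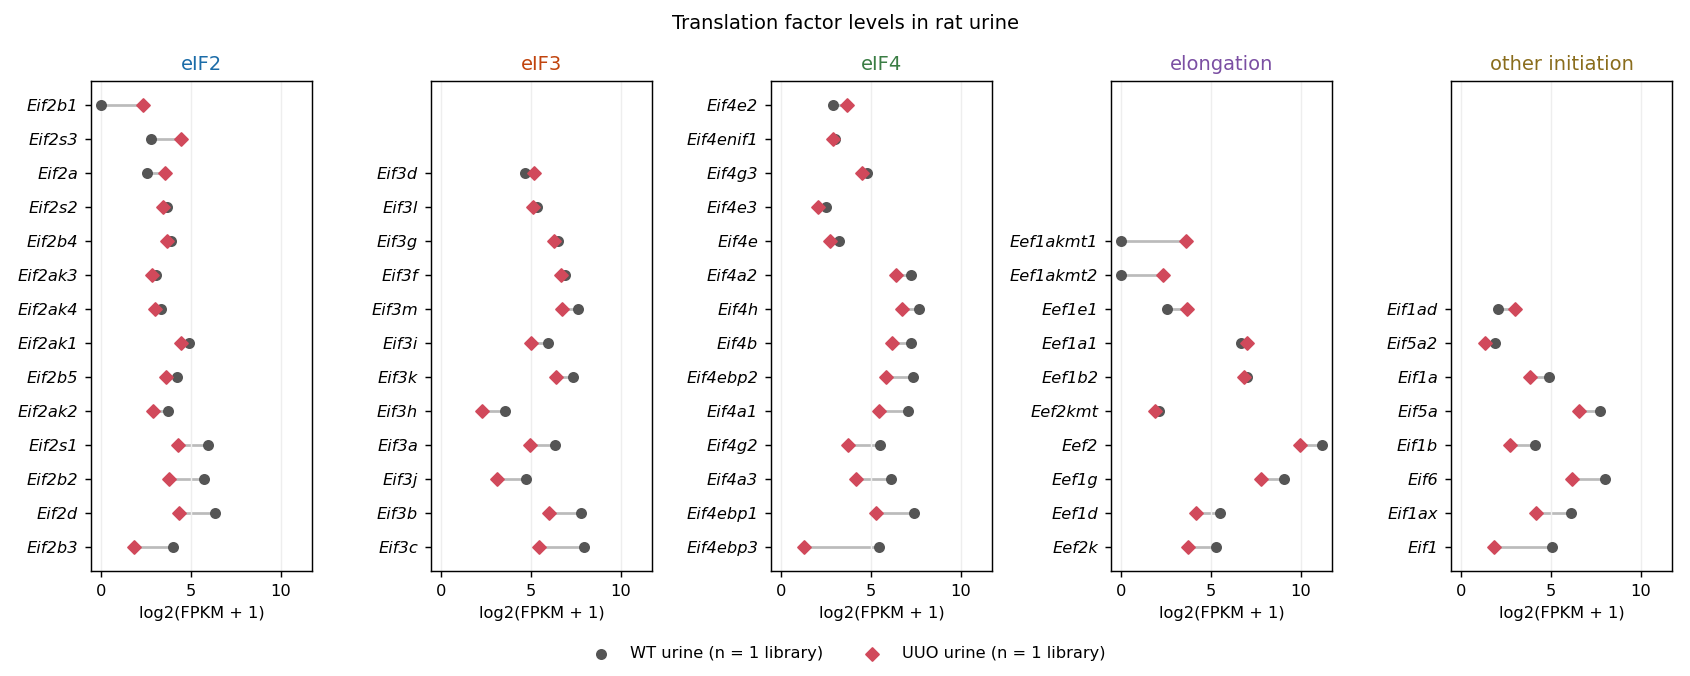
Level of each of the 58 members that reached an FPKM of 1, as log2(FPKM + 1) on the horizontal axis, in WT (circles) and UUO urine (diamonds), 1 library each, with members of a group ordered by their difference. Most diamonds lie to the left of their circles, while Eif2b1, Eef1akmt1 and Eef1akmt2 start from 0 in WT urine.

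Of the 58 members that reached an FPKM of 1 in a library, 48 had a lower and 10 a higher FPKM in UUO urine. Of all number-only genes that did so, 6023 of 9853 had a lower and 3830 a higher one. By a 2-fold limit 26 were lower (44.8%) and 5 higher (8.62%), and 27 lay within it. Among the 9853 number-only genes that pass the same filter, 36.5% were lower and 25.7% higher. With both libraries at an FPKM of 1 or more, 26 of 55 members were lower and 2 higher, beside 42.8% and 7.01% of the 7218 genes. The median log2 difference of the members was -0.94, against -0.51 for all these genes and -0.81 for those detected in both libraries, so it lay 0.13 below the latter.

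The split moved with the scaling, and so did the member median, which lay between -0.32 and -0.05 under the rescalings. After rescaling to equal sums 9 members were higher and 15 lower, and after rescaling by the median ratio of genes 10 were higher and 9 lower, with the same counts when the 75th percentiles were made equal. By the median ratio the shares of all number-only genes were 39.8% higher and 15.6% lower, and those of the members 17.2% and 15.5%. A lower count was thus near the background there, and a higher count below it under every scaling. That background was not matched for level. Among genes passing the filter the median FPKM in WT urine was 38.7 for members and 10.3 for all number-only genes. In all, 9 members were past the lower limit under all of these scalings (Eif4ebp3, Eif1, Eif3c, Eif2b3, Eif4ebp1, Eif2d, Eif2b2, Eif1ax and Eif4a3). Past the higher limit under all were 5 (Eef1akmt1, Eif2b1, Eef1akmt2, Eif2s3 and Eef1e1), and 17 changed sign. The rescalings raised UUO values 1.54, 1.86 and 1.83 times, so the 5 higher members could not come within their limit, while the 9 lower ones could have. Of the 5, Eef1akmt1, Eif2b1 and Eef1akmt2 were listed at 0 in WT urine.

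Differences also went with level in these libraries. Among genes outside the members the median log2 difference was 0.25 at a mean level of 1 to 5, -0.77 at 5 to 20, -1.05 at 20 to 50, -1.11 at 50 to 100 and -1.12 above 100 (geometric mean of FPKM + 1 over both libraries, less 1). The members in these classes had medians of 0.93 (7 genes), -0.52 (19), -1.50 (14), -1.55 (4) and -1.01 (14). Of the 14 members above a level of 100, 7 were more than 2-fold lower, beside 53.5% of the 314 other genes of that class. More than 2-fold higher were 40.9% of the other genes at 1 to 5, and 4.78% to 8.92% in the classes above. Of the members, 3 of 7 were so at 1 to 5, 2 of 19 at 5 to 20 and 0 above that.

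**Figure D2:**
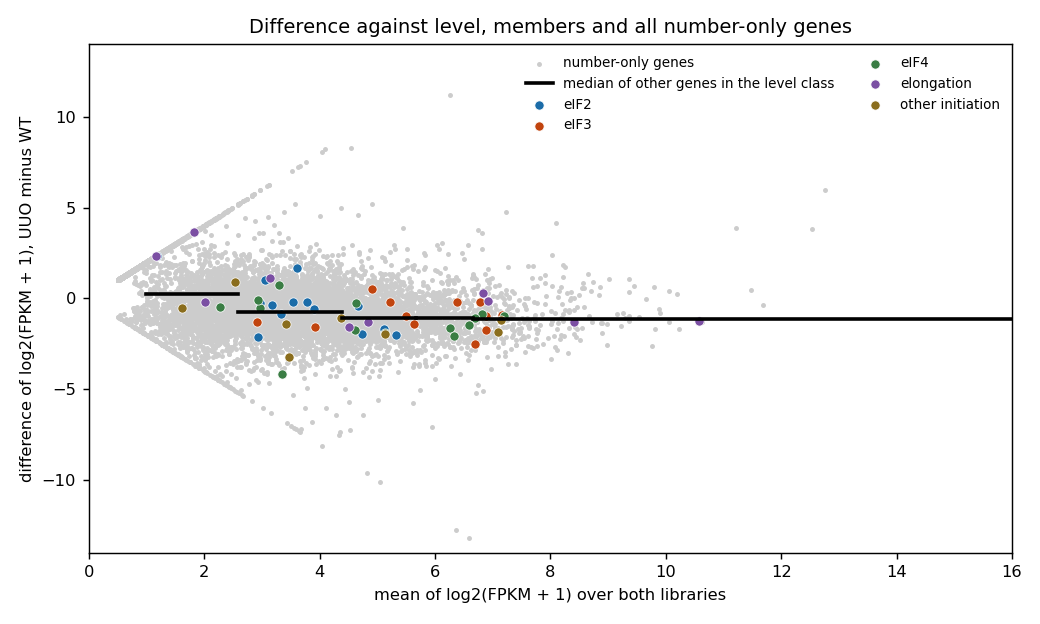
Difference of log2(FPKM + 1), UUO minus WT, against the mean of log2(FPKM + 1) over both libraries, for number-only genes (grey) and members (coloured by group), with black bars for the median of the other genes in each level class. The class median of the other genes falls from 0.25 at the low end to -1.12 at the high end, while that of the members is lowest, at -1.55, in the class from 50 to 100 and is -1.01 above 100.

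By group, the median log2 difference was -0.40 for eIF2 (14 genes passing the filter), -0.96 for eIF3 (12), -1.002 for eIF4 (14), -0.18 for elongation (10) and -1.28 for the other initiation factors (8). Set against the gene median of -0.81, eIF2 and elongation lay 0.42 and 0.63 above it, and eIF3, eIF4 and the others 0.15, 0.19 and 0.47 below it. That gene median is over genes detected in both libraries. With members counted in the same way the eIF2 median was -0.44 and the elongation median -0.72 (8 genes), so that elongation lay close to the gene median. The eIF2 and elongation medians over all members passing the filter were above 0 under each rescaling, and the other medians below 0. Ranges within a group were wide, from -2.14 to 2.35 in eIF2 and from -1.58 to 3.63 in elongation, so that the groups overlapped. Differences between groups could not be tested.

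**Figure D3:**
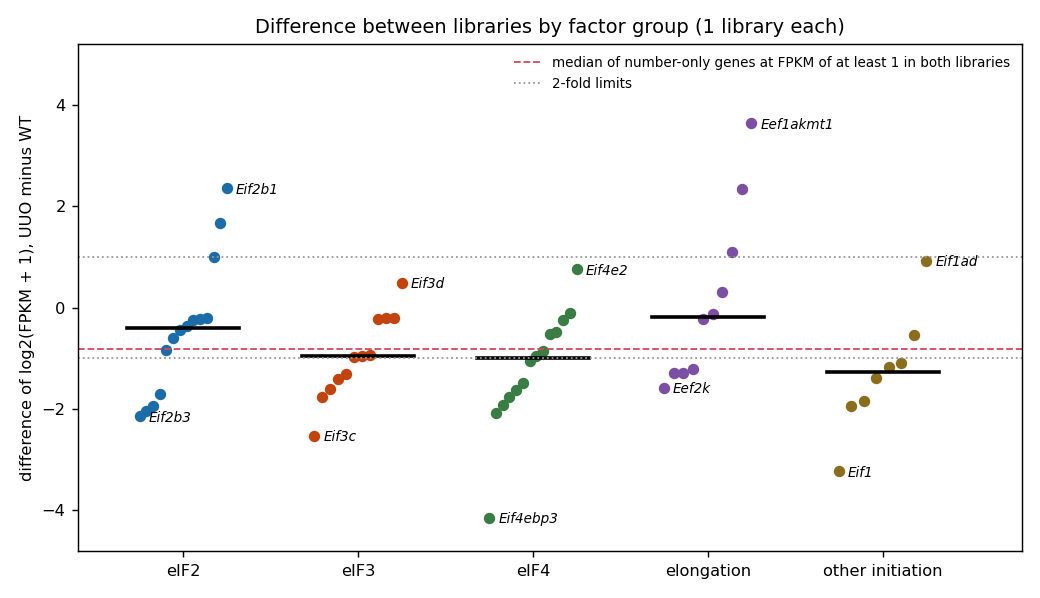
Difference of log2(FPKM + 1), UUO minus WT, for each member by group, with black bars for group medians, the gene median of -0.81 dashed and the 2-fold limits dotted. The eIF2 and elongation groups hold the 5 members past the upper limit, and the lowest members are Eif4ebp3 at -4.15 and Eif1 at -3.23.

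The subunits of eIF2 did not move together. Eif2s1 encodes the alpha subunit, which the stress kinases phosphorylate, and stood at 61.5 FPKM in WT against 18.3 in UUO urine, a log2 difference of -1.69 (ID 54318, rn5 chromosome 6, 111421957 to 111447504). Eif2s2, the beta subunit, was 11.5 and 9.80, a difference of -0.21. Eif2s3, the gamma subunit that binds GTP and the initiator tRNA, was 5.86 and 20.9, a difference of 1.68 (ID 299027, chromosome X, 63860945 to 63884997). Eif2s1 was thus higher in WT urine and Eif2s3 in UUO urine. The ratio of Eif2s3 to Eif2s1 within a library was 0.0953 in WT and 1.14 in UUO urine, 11.99 times apart, and no single scaling factor changes it.

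The guanine nucleotide exchange factor eIF2B, which recharges eIF2 with GTP, was similarly uneven. Its beta subunit Eif2b2 was 51.5 in WT and 12.6 in UUO urine, a log2 difference of -1.95. The gamma subunit Eif2b3 was 14.98 and 2.63, a difference of -2.14. The delta subunit Eif2b4 was 13.9 and 11.8, and the catalytic epsilon subunit Eif2b5 was 17.4 and 11.1. These 4 were lower in UUO urine, but only the beta and gamma subunits past the limit. Summed over all entries of its locus, Eif2b4 was instead higher on the UUO side, at 31.8 against 13.9 and a difference of 1.13. Eif2b1, the alpha subunit, was listed at 0 in WT and at 4.10 in UUO urine. It shares its locus with Ddx55 and further entries, 15 in all, among which fragments are divided, and the sum over the locus was 6.17 in WT and 14.8 in UUO urine, a difference of 1.14.

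The 4 kinases of eIF2 lay close together, with log2 differences from -0.84 to -0.24 and 0 of 4 past the limit. Eif2ak1, the haem-regulated kinase known from red-cell precursors, was 28.5 in WT and 20.8 in UUO urine. Eif2ak2, the kinase of the double-stranded RNA response also called PKR, was 12.5 and 6.55. Eif2ak3, or PERK, which responds to stress of the endoplasmic reticulum, was 7.46 and 6.16. Eif2ak4, or GCN2, which senses amino acid shortage, was 9.26 and 7.03. All 4 kinases were below 0 as deposited, and 3 of them, Eif2ak1, Eif2ak3 and Eif2ak4, changed sign under the rescalings.

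Eif2a and Eif2d, which can bring initiator tRNA to the ribosome without eIF2, went opposite ways. Eif2a was 4.90 in WT and 10.8 in UUO urine, a log2 difference of 0.9995, just under the limit. Eif2d was 80.0 and 18.8, a difference of -2.03. Eif2d shares its locus with Rassf5, and the sum over the locus differed by -1.16.

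In the eIF3 complex 11 of 12 subunits passing the filter had a lower FPKM in UUO urine. Of the 12, 5 (41.7%) were past the lower 2-fold limit and 0 past the upper one. All 12 were detected in both libraries, and of the 7218 such genes 5448 were lower, 42.8% of the 7218 past the limit. Set against the gene median, 8 subunits lay below it and 4 above. Under each rescaling, however, Eif3d was past the upper limit, and Eif3f, Eif3g and Eif3l were above 0. The 3 subunits a, b and c are the largest, form the core conserved from yeast together with Eif3g and Eif3i, and were singled out after their values had been seen. Eif3c was 248 in WT and 42.3 in UUO urine, a log2 difference of -2.52 (ID 293484, chromosome 1, 204943164 to 204961417). Eif3b was 217 and 63.3, a difference of -1.76, and Eif3a was 80.6 and 29.6, a difference of -1.42. Each of these was past the limit as deposited, but after rescaling by the median ratio Eif3c alone of the 3 was past it.

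The other eIF3 subunits had log2 differences from -1.60 to 0.49. Eif3f, one of the subunits with a deubiquitinase-like fold, was 117 in WT and 100.3 in UUO urine, a log2 difference of -0.22. Eif3g, an RNA-binding subunit, was 88.9 and 76.5 (-0.21), and Eif3l was 39.2 and 33.9 (-0.21). Nearer to the gene median were Eif3m at 197 and 103 (-0.93), Eif3k at 163 and 83.0 (-0.97) and Eif3i at 61.6 and 31.4 (-0.95). Eif3j, a loosely attached subunit, was 25.2 and 7.67 (-1.60), but it shares its locus with Ndufb4, and the sum over the locus differed by -0.89, within the limit. Eif3h was 10.9 and 3.79 (-1.31). Eif3d, which can itself bind the cap, was the only subunit with a higher FPKM in UUO urine, at 24.2 in WT and 34.4 in UUO urine (0.49).

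Subunits of the eIF3 complex thus had unequal RNA levels within a library, although the proteins act in one assembly. The highest subunit was 22.8 times the lowest in WT urine and 27.2 times in UUO urine. The lowest in both was Eif3h, whose listed locus may hold a copy, and without it the ratios were 10.2 and 13.4. Over the 12 subunits, which share their libraries, Pearson's r between the libraries was 0.82 on the log2 FPKM scale and Spearman's rho 0.72. The ratio of Eif3c to Eif3f was 2.12 in WT and 0.421 in UUO urine, 5.03 times apart.

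At the cap, the eIF4E family was low in both libraries. Eif4e, the cap-binding factor, was 8.34 in WT and 5.51 in UUO urine, a log2 difference of -0.52. Eif4e2, a cap-binding repressor, was 6.56 and 11.7 (0.75), but its locus holds 8 number-only genes, and the sum over the locus differed by -0.89. Eif4e3 was 4.74 and 3.11 (-0.48). The 3 genes were within the limit in both directions, and at an FPKM of 5 on a transcript of 2000 bp the counting interval of a log2 ratio spans 0.87 to either side.

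The helicases were much more abundant. Eif4a2 was 151 in WT and 82.9 in UUO urine (-0.86), close to the gene median. Eif4a1, its close relative, was 133 and 42.5 (-1.62), and the ratio of Eif4a1 to Eif4a2 was 0.881 in WT and 0.513 in UUO urine. Eif4a3, which acts in the exon junction complex and not in cap binding, was 67.3 and 17.1, a log2 difference of -1.91 (ID 688288, chromosome 10, 108027034 to 108037029). The helicase helpers Eif4b and Eif4h were 148 and 70.4 (-1.06) and 203 and 105 (-0.95). Of the scaffolds, Eif4g3 was 26.1 and 21.8 (-0.25, and 0.40 summed over its locus), and Eif4g2, which lacks the binding site for eIF4E, was 44.3 and 12.3 (-1.77).

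The eIF4E-binding proteins, which hold eIF4E away from the scaffold until they are phosphorylated, were all lower in UUO urine as deposited. All 4 were detected in both libraries, and of the 7218 such genes 5448 were lower, 42.8% of the 7218 past the limit. Eif4ebp1 was 164 in WT and 37.9 in UUO urine, a log2 difference of -2.08 (ID 116636, chromosome 16, 68580262 to 68594047). Eif4ebp2 was 161 and 56.9, a difference of -1.48. Eif4ebp3 was 42.0 and 1.43, a difference of -4.15 and the lowest of all members, while the sum over its locus, shared with Ankhd1, differed by -1.44. These 3 were past the limit as deposited, and Eif4ebp2 was within it under each rescaling. Eif4enif1, which carries eIF4E into the nucleus, was 6.89 and 6.34 (-0.10), and was above 0 under each rescaling. The ratio of Eif4ebp1 to Eif4e was 19.6 in WT and 6.87 in UUO urine.

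Among the other initiation factors 7 of 8 were lower in UUO urine, 6 past the limit. All 8 were detected in both libraries, and of the 7218 such genes 5448 were lower, 42.8% of the 7218 past the limit. Eif1, which guards start codon choice, was 32.9 in WT and 2.61 in UUO urine, a log2 difference of -3.23 (ID 287703, chromosome 10, 88020606 to 88023017). The sum over the locus of Eif1 was 57.9 and 20.5 (-1.45), so the direction held with a smaller size. Its relative Eif1b was 16.3 and 5.58 (-1.39). Eif1ax and Eif1a, forms of the scanning factor eIF1A, were 67.6 and 16.9 (-1.94) and 29.1 and 13.1 (-1.09). Summed over their loci, Eif1b (-0.96) and Eif1a (-0.93) were within the limit.

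Eif6, which keeps the large ribosomal subunit from joining too early, was 259 in WT and 71.3 in UUO urine, a log2 difference of -1.85. Eif5a, the hypusine-carrying factor that eases elongation and termination, was 211 and 93.2 (-1.17), and its rarer relative Eif5a2 was 2.69 and 1.55 (-0.53). Eif1ad, an eIF1A-like protein, was the exception at 3.20 and 6.99 (0.93), yet the sum over its locus was 52.2 in WT and 9.40 in UUO urine (-2.35).

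Of the 5 groups the elongation group had the highest summed FPKM, with 3170 of 6549 for all members in WT urine and 1515 of 2971 in UUO urine, and Eef2 alone gave 2324 and 999 of these. Eef2 differed by -1.22 (ID 29565, chromosome 7, 11568766 to 11574211). Eef1a1, which delivers aminoacyl-tRNA, was 101 in WT and 126 in UUO urine, a log2 difference of 0.32 (ID 171361, chromosome 8, 85385243 to 85391136). Eef1a2, its muscle and nerve form, was listed at 0 in both. The ratio of Eef2 to Eef1a1 was 23.0 in WT and 7.93 in UUO urine, though reads shared with Eef1a1-like entries may be missing from Eef1a1 in both.

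The exchange factors that recharge eEF1A differed among themselves. Eef1b2 was 126 in WT and 114 in UUO urine (-0.14). Eef1g was 530 and 216 (-1.29), and Eef1d was 43.9 and 17.3 (-1.30). Eef1b2 thus stood 0.67 above the gene median, and Eef1g and Eef1d 0.48 and 0.49 below it. Eef1e1, a part of the multi-synthetase complex, was 4.995 and 11.9 (1.10), past the limit in the other direction.

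The 4 enzymes that modify elongation factors ranged from 0 to 38.2 FPKM in WT and from 2.76 to 12.1 in UUO urine. Eef2k, the kinase that halts eEF2, was 38.2 in WT and 12.1 in UUO urine (-1.58). Eef1akmt1 and Eef1akmt2, lysine methyltransferases of eEF1A, were listed at 0 in WT urine and at 11.4 and 4.05 in UUO urine. Eef1akmt1 was the only member listed at 0 in 1 library with an FPKM of at least 5 in the other. Eef2kmt, which methylates eEF2, was 3.36 and 2.76. Without these 4 enzymes the median log2 difference of the elongation group was -0.68 in place of -0.18.

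Many mRNAs of the translation machinery begin with a C followed by a run of pyrimidines, the terminal oligopyrimidine start through which growth signals control them. The annotated start in RefSeq (build GRCr8) was read for 56 members. A C followed by at least 4 bases that are each C or T, on the transcript strand and beginning within 5 bases of the start, was found in 16 of 59 member windows (27.1%) and in 17.0% of all 33469 windows of the table. Beginning at the annotated start itself, it was found in 1 of the 59 member windows (1.69%) and in 2.63% of all. The 30 bases around the start are shown for factors named above, 15 before and 15 from the start on, with the matching run within the window in capitals. The first 5 hold a match, and Eif3c is a strongly differing factor with a short one. In Eef1g, an abundant factor, no match was found within the window. Its annotated start lies just before an ATG and may not be where the mRNA begins, so whether Eef1g has such a start cannot be read here.
Eef1a1 (chr8:88225055-88225084, minus strand): tcgccttggacgttCTTTTTCgcaacgggt
Eef1b2 (chr9:72074076-72074105, plus strand): tttccggccggtcccggCCCTTTTTCTCCC
Eif3f (chr1:172369047-172369076, plus strand): tcacgcccttccgttctagCCTCTCTCTTT
Eif3m (chr3:111897179-111897208, minus strand): cgtaacaccgtgtggtaccgCTCCTTTTCC
Eif2s3 (chrX:62933685-62933714, minus strand): ggcggcagccgagcattttCCTTTTCTCTC
Eef1g (chr1:215289800-215289829, plus strand): tttctctgcggaatcaccatggcggctggg
Eif3c (chr1:190583053-190583082, minus strand): tgctttcgggcggatctcggCTTTCggggg

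Of the 16 members with such a start, 2 (Eif1 and Eif3c) were more than 2-fold lower in UUO urine and 4 (Eef1akmt1, Eef1akmt2, Eef1e1 and Eif2s3) higher, and their median log2 difference was -0.23. Of the 37 members passing the filter without it, 20 were lower and 1 higher, with a median of -1.17. This contrast was neither tested nor matched for level. Of the 4 higher members with such a start, Eef1akmt1 and Eef1akmt2 were listed at 0 in WT urine. Over all number-only genes with a start in the table, 37.4% were lower and 24.4% higher with such a start, at a median of -0.54, and 36.6% and 25.3% without it, at a median of -0.52. Annotated starts can be off by some bases, and a run outside the window was not counted.

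The rest of the translation apparatus gave a frame for these values. The 20 cytosolic aminoacyl-tRNA synthetases, which load tRNAs, were mostly lower in UUO urine, 14 past the 2-fold limit and 0 past it in the other direction, with a median log2 difference of -1.48. All 20 were detected in both libraries, and of the 7218 such genes 42.8% were past the lower limit. After rescaling (equal sums, median ratio, 75th percentile) 10, 9 and 9 synthetases were past the lower limit, and 1, 2 and 1 past the upper one. The synthetase median was below 0 under each rescaling, and 16 of the 20 lay below the gene median. Qars1, the glutamine enzyme, was 217 in WT against 23.2 in UUO urine (-3.17), and Aars1, the alanine enzyme, was 108 and 20.7 (-2.33). Iars1, for isoleucine, was 4.11 and 6.27 (0.51). Of the 8 mitochondrial translation factors, 3 were lower (37.5%) and 1 higher (12.5%), with a median of -0.69. Of all number-only genes passing the filter, 36.5% were lower and 25.7% higher. The higher one, Mtrf1l, was listed at 0 in WT and at 1.68 in UUO urine. After the 3 rescalings, in the order above, the median of this list was -0.14, 0.10 and 0.08. Of 3 termination and recycling factors with an ID, Gspt1 was listed at 0 in both, and the release factor gene Etf1 was 32.0 and 23.3.

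Genes that cells induce when eIF2 is phosphorylated were split. Of 8 such genes 4 were lower and 3 higher past the limit, and Chac1 reached an FPKM of 1 in neither library. Under each rescaling 2 were lower and 3 higher past it. Atf4, the transcription factor of this response, was 904 in WT against 111 in UUO urine (-3.02), and Asns, asparagine synthetase, was 57.8 and 7.85 (-2.73). Ddit3, also called Chop, was 7.59 and 63.6 (2.91), and Ppp1r15a, which directs the removal of phosphate from eIF2, was 5.02 and 28.1 (2.27). Atf3 was 15.3 and 38.5 (1.28). Atf4 and Asns were thus lower in the library in which Ddit3, Ppp1r15a and Atf3 were higher.

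Of 14 translation regulators with an ID, 4 were lower (28.6%) and 2 higher (14.3%), with a median log2 difference of -0.75. Of all number-only genes passing the filter, 36.5% were lower and 25.7% higher. After rescaling (equal sums, median ratio, 75th percentile) 1, 0 and 0 regulators were lower and 4 higher each time, with medians of -0.18, 0.08 and 0.05. Mtor, the growth kinase that phosphorylates the eIF4E-binding proteins through its complex, was 25.9 in WT and 7.23 in UUO urine (-1.71). Mknk1, a kinase of eIF4E, was listed at 0 in WT and at 8.89 in UUO urine, while its relative Mknk2 was 192 and 84.3 (-1.18). Denr, which helps ribosomes restart, was 7.34 and 22.3 (1.48). Pabpc1, the poly(A)-binding protein, was 265 and 216 (-0.30).

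**Figure D4:**
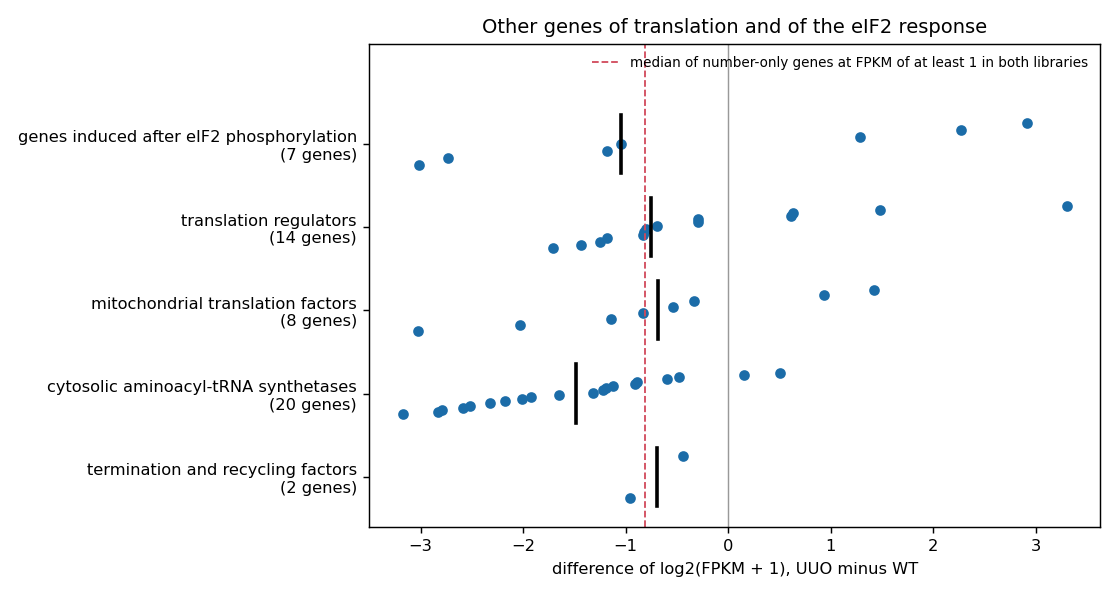
Difference of log2(FPKM + 1), UUO minus WT, for genes of 5 lists that reached an FPKM of 1, with black bars for list medians and the gene median of -0.81 dashed. The aminoacyl-tRNA synthetases lie lowest, with a median of -1.48, and the genes induced after eIF2 phosphorylation lie on both sides from -3.02 to 2.91.

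Set beside other housekeeping families, the factors lay between them. The 58 ribosomal protein genes passing the filter had a median log2 difference of 0.36, with 13 lower and 23 higher past the limit. The 38 proteasome genes had a median of -1.14, with 22 lower and 2 higher. Over all 9853 number-only genes passing the filter, 36.5% were lower and 25.7% higher. The member median of -0.94 was nearer to that of the proteasome genes, and these differences between families were not tested.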

How the data were processed

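RNA from rat urine was sequenced in 2 libraries, 1 labelled WT and 1 UUO. According to the methods of the study, the authors filtered reads for adapters and quality, aligned them in pairs and assembled transcripts with Cufflinks and Scripture. The submitters' processing notes list Bowtie2 2.0.6, TopHat2 2.0.9, Cufflinks 2.1.1, Cuffdiff 2.1.1 and the build rn5. The deposited table gives 1 FPKM value per feature and library by the authors, with the total used for scaling left unnamed. Its columns of the authors' own comparison (fold changes, test statistics, p-values and q-values) were not used. The condition names in the table are abbreviations and were read as UUO and WT. Coordinates are as listed. A listed locus is merged over overlapping entries, whose fragments are divided among them.

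Symbols came from a RefSeq table of GRCr8, which matched 16329 of 16484 number-only IDs (99.1%), and start sequences from a RefSeq table of the same build. Differences of log2(FPKM + 1) were computed with Python 3.11.15, pandas 2.3.3 and numpy 2.4.6, over genes that reached an FPKM of 1 in a library, and counted at 2-fold. Changes were computed over the whole table and the members were then read from it. The arithmetic and the fit of the FPKM steps were tested on simulated data. That fit used assembled loci of 400 to 1200 bp that overlap no other entry. Within 0.1 of a whole number lay 98.9% of 88 values in WT urine, at a normalising total of 2120000 fragments, and 97.7% of 3418 values in UUO urine, at 2472000. With 1 library per group no test, error or p-value could be given. Alternatives were the pseudocount, 3 rescalings, filters on low values, and the sum over a locus.

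All members could be named. Given in full were the 5 with the highest and the 5 with the lowest difference at FPKM of at least 5, the 5 highest FPKM in each library, members at 0 in 1 library, and sets of related genes. The members, lists and rules were chosen with earlier results of these data known. Start sequences are printed for 7 members, and the others are not reported here.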

Additional observations from a re-analysis of the deposited data

How the results depend on the processing

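No paired analysis was possible because there was only 1 library of either kind, and for the same reason no replicate could be left out. A log2 difference was taken as kept when its sign and its side of 1 were kept, and a count when it stayed within 1.5 times. By these limits 62 of 87 recomputed counts and medians were kept. Among those kept are the results without a filter. They could not move, because every member that the filter removes was listed at 0 in both libraries. The 3 rescalings (equal sums, median ratio, 75th percentile) multiplied UUO values by 1.54, 1.86 and 1.83, which by construction moves every median upward. Under them, in that order, the count of higher members went from 5 to 9, 10 and 10 and that of lower members from 26 to 15, 9 and 9. The median of all members went from -0.94 to -0.32, -0.05 and -0.07. The eIF3 median went from -0.96 to -0.34, -0.08 and -0.10. By the limits above these 2 medians were taken as kept, although they shrank. The eIF2 median reversed to 0.19, 0.44 and 0.42, and the elongation median to 0.38, 0.62 and 0.60. The eIF4 median shrank from -1.002 to -0.38, -0.12 and -0.14, and that of the other initiation factors from -1.28 to -0.70, -0.44 and -0.47. With a pseudocount of 10 these last medians were both -0.93, and 1 member was higher. The count of higher members was 3 at FPKM of at least 5 in either library, 2 among members above 0 in both libraries and 3 at a 4-fold limit, where 6 were lower. By the first and second of these, 53 and 55 members could be counted in place of 58. Of 58 single differences, 48 were kept when FPKM was summed over the locus, and Eif1ad (-2.35) and Eif2b4 (1.13) reversed past the limit, while Eif3j, Eif1b and Eif1a came within it. Alternatives chosen after seeing the data (leaving out the 4 members without shared neighbours, or the kinases and methyltransferases) kept, by the limits above, the counts and medians they were run on. Even so, the elongation median went from -0.18 to -0.68 without its kinase and methyltransferases. Depth limits the low members: at an FPKM of 5 on a transcript of 2000 bp the 95% counting interval of a log2 ratio spans 0.87 to either side.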
